A study of Mus musculus with 302 samples.

Results

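Phf1 and Bak1 are a pair of genes on mouse chromosome 17. They were followed through all probes that the array's probe table gives either name, which are 3 of 23562 probes, 2 for Phf1 and 1 for Bak1, in the livers of 302 mice. Each of the 3 probes had a value in all 302 mice. The pair was chosen by measured values, namely the joint movement of both genes among these livers, so the correlation between them, their states and their strongest correlates are given as descriptions, with no test.

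The mice were an F2 generation of an intercross of C57BL/6J with C3H/HeJ, 2 inbred strains, and all belong to 1 labelled group with no genotype, sex or trait given for a mouse. They ate chow with 4% fat up to 8 weeks of age, then a Western diet with 42% fat and 0.15% cholesterol for 12 weeks, and were killed at 20 weeks after fasting for 12 hours. Each array set the liver RNA of 1 mouse against a pool made from equal amounts of the RNA of every mouse, and the values were taken as log10 of mouse over pool. The direction is likely and the base is an assumption, as neither base nor direction is stated. The whole piece of liver was used, and a ratio to a pool of the same tissue gives no level, so the presence of a cell type cannot be checked from it. Array medians lay between -0.0117 and 0.0174, and the 23512 probes measured in 90% or more of the mice were used. Over all probes 10838 genes are named.

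Phf1 encodes a PHD finger protein of the Polycomb-like family, which binds methylated histone tails and assists Polycomb repressive complex 2, the enzyme complex that places a repressive methyl mark on histones. Bak1 encodes a pore-forming effector of the Bcl-2 family. It sits in the outer membrane of mitochondria, where its assembly into pores releases cytochrome c and commits a cell to apoptosis, a route by which injured hepatocytes are known to die.

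The promoters are shown because the genes lie on 1 chromosome and their values move together. The gene table of GRCm38.p6 places 7 genes between Phf1 and Bak1, so the pair are neighbours among the measured genes, not on the chromosome itself. The RefSeq promoters of the same build run from 250 bases before to 50 after the annotated start. That of Phf1 lies on the + strand at chr17:26932877-26933176 and that of Bak1 on the - strand at chr17:27028578-27028877. Capitals mark the GC box, GGGCGG, searched on both strands.
Phf1: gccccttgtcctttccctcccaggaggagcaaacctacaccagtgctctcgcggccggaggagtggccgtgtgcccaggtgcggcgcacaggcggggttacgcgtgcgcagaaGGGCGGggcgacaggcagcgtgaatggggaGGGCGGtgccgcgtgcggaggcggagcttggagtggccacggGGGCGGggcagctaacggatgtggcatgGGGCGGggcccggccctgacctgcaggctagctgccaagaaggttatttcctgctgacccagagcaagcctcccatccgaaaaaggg
Bak1: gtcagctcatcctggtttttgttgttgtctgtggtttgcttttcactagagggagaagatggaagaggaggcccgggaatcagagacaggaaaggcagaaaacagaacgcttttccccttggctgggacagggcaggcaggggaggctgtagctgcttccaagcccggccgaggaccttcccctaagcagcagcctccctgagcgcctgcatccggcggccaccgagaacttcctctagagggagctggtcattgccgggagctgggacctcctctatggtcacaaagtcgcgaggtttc

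The Phf1 promoter had a GC content of 68.7%, 24 CpG dinucleotides and 4 GC boxes. The Bak1 promoter had a GC content of 58.3%, 11 CpG dinucleotides and no GC box. Over 32851 promoters of the same length the median GC content was 52.7%, the median number of CpG dinucleotides was 7, and 35.7% held a GC box. The TATA box core TATAAA (13.6% of promoters), the CCAAT box CCAAT (37.4%), the E-box CACGTG (7.15%), the cAMP response core TGACGT (7.51%), the ETS core CCGGAAG (8.86%) and the NRF1 core, of which 0.971% of promoters hold a match, were not found in either window on either strand. These 2 windows thus share none of the 7 motifs searched.

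Phf1 varied widely among the livers. By the probe with the larger spread, called Phf1 from here on, the lowest mouse had a log10 ratio of -0.604, the median mouse -0.288 and the highest 0.747 (SD 0.287, n = 302). As linear ratios to the pool these are 0.249, 0.516 and 5.58. The 95th percentile lay 8.81-fold above the 5th. Most mice were below the pool, 61 of 302 were above it, and 28 were more than 2-fold above.

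Bak1 was also below the pool in most mice and had a smaller range. Its lowest, median and highest log10 ratios were -0.544, -0.173 and 0.609 (SD 0.233, n = 302), or 0.286, 0.671 and 4.07 as linear ratios. The 95th percentile lay 5.42-fold above the 5th, 71 mice were above the pool and 18 were more than 2-fold above. In rank of SD among the 23512 probes Phf1 was 258th and Bak1 488th, at 4.34 and 3.52 times the median SD of 0.0661.

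The second probe named Phf1 did not show this range. Its lowest, median and highest log10 ratios were -0.173, 0.0186 and 0.201 (SD 0.0541, n = 302), which ranks 15362nd among the probes, and no mouse was 2-fold above the pool. The gene identifier that the probe table pairs with it is not in the mouse gene table, whereas that of the first probe is, so which transcript the second probe reads is not known here. The statements on Phf1 below therefore rest on 1 probe, as those on Bak1 do.

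High values were more frequent among mice with low title numbers. Each title carries a number between 51 and 362, and in windows of 20 numbers, chosen after the values were seen, the first 3 windows (51 to 110) had Phf1 medians of 0.0666 to 0.283, while the 13 later ones had medians of -0.426 to -0.234. Phf1 was above the pool in 39 of 59 mice (66.1%) numbered up to 110, against 22 of 243 (9.05%) numbered above 110. For Bak1 the first 3 windows had medians of 0.0634 to 0.190 and the later ones -0.323 to -0.143, and 41 of 59 mice (69.5%) against 30 of 243 (12.3%) were above the pool. The low values were present in both ranges: among mice numbered up to 110 the lowest Phf1 value was -0.356 and the lowest Bak1 value, in another mouse, -0.366. The second Phf1 probe was above the pool in 31 of 59 mice (52.5%) against 167 of 243 (68.7%).

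**Figure D1:**
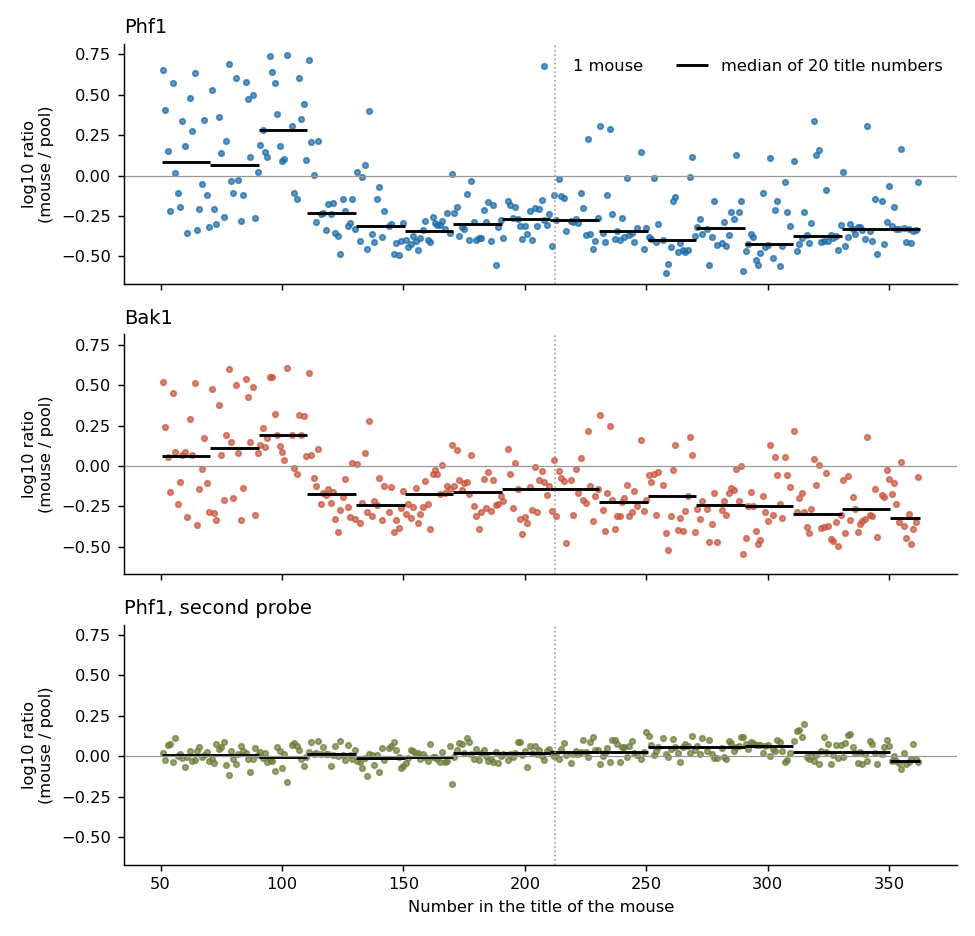
Log10 ratio of mouse to pool (vertical axis) of Phf1, Bak1 and the second Phf1 probe for each of 302 mice, against the number in the title of the mouse (horizontal axis). Points are mice, black bars are medians over 20 title numbers, and the dotted line lies between 212 and 213. The first 3 bars of Phf1 and Bak1 lie above 0 and the other 13 below it, and the second Phf1 probe stays within -0.173 and 0.201.

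With values and numbers both centred in blocks, the correlation over all 302 mice with the title number was -0.391 for Phf1 (Spearman's rho -0.386, permutation p = 1e-05, the smallest the 100000 permutations can give, adjusted p = 7.5e-05) and -0.350 for Bak1 (rho -0.318, p = 1e-05, adjusted p = 7.5e-05). Without the 2 mice of the most distant title numbers the values were -0.388 and -0.347. The 4 blocks are the mice with the marker Eif2s3y below or above -0.8, each split at title number 212, and hold 77, 82, 65 and 78 mice. In the 2 blocks up to 212 the correlation of Phf1 with the number was -0.550 and -0.615, and in the 2 above it 0.0463 and -0.0978, so the relation did not hold within the later blocks. For Bak1 the 4 values were -0.414, -0.488, -0.0976 and -0.250. What the number stands for is not given in the labels. Of the array-wide measures, the median over an array's probes correlated with Phf1 at 0.215 (rho 0.164, adjusted p = 0.0011) and with Bak1 at 0.172 (rho 0.135, adjusted p = 0.0105), and the SD over its probes at 0.136 and 0.140 (rho 0.135 and 0.120, adjusted p = 0.0461 and 0.0432, by rank 0.0463 and 0.0789). Within blocks the correlation with the array median ran from -0.00196 to 0.361 for Phf1 and from 0.138 to 0.263 for Bak1. That with the array SD ran from -0.288 to 0.264 for Phf1 and from -0.132 to 0.278 for Bak1. In all 15 such relations were computed by permutation and adjusted together by Benjamini-Hochberg, and the part of these measures in the results below was not tested.

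Values centred on the mean of each block were described by mixtures of Gaussian states. For Phf1 2 states were chosen, a low one of 251 mice (83.1%, exact 95% binomial interval 78.4 to 87.2%) and a high one of 51 mice, whose means lay 3.93-fold, or 3.87 within-state SDs, apart. For Bak1 the low state held 267 mice (88.4%, 84.2 to 91.8%) and the high state 35, with means 2.91-fold or 3.01 SDs apart. These intervals take the assigned states as known and leave out the uncertainty of the fit. With a separate variance for each state the low shares were 72.8% for Phf1 and 70.5% for Bak1, both outside them. The states are not separated by a gap: 29 mice lay within 0.5 within-state SDs of the midpoint between the Phf1 means against 15 within the same distance of the upper mean, and for Bak1 these numbers were 51 and 13. Among all probes 38.8% had more than 1 state by the same step in the Bayesian information criterion, and 2.26% had means over 3 SDs apart with at least 5% of the mice in the smaller state. The second Phf1 probe had 1 state.

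The number of states also depended on which mice entered. Of the 51 mice in the high state of Phf1, 30 were numbered up to 110 and 21 above, and of the 35 in that of Bak1, 19 and 16. With title numbers up to 212 alone Phf1 had 3 states with 109 of 159 mice (68.6%) in the lowest, and with numbers above 212 it had 2, with 122 of 143 (85.3%) in the lower. Bak1 had a single state in the 143 mice numbered above 212. Both genes placed 247 mice in the low and 31 in the high state, 20 mice were high in Phf1 only and 4 in Bak1 only.

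Phf1 and Bak1 followed each other mouse by mouse. Both were above the pool in 57 mice, Phf1 alone in 4, Bak1 alone in 14 and neither in 227. All 18 mice with Bak1 over 2-fold above the pool were among the 28 with Phf1 over 2-fold above it, and the same mouse, numbered 102, was the highest in both, at 0.747 and 0.609. Within blocks Pearson's r was 0.902 (95% interval 0.878 to 0.921, n = 302) and Spearman's rho 0.840, and a step of 1 in log10 Phf1 went with one of 0.725 in Bak1.

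The correlation was present in every range of mice examined, at different strength. It was 0.938 and 0.936 in the blocks up to number 212 and 0.749 and 0.857 in those above. It was 0.958 in the 59 mice numbered up to 110 and 0.839 in the 243 above, 0.893 with each window of 20 numbers centred, and 0.896 when the 2 most outlying mice in Phf1 were left out. With the first 5 principal components of all other probes removed it was 0.787.

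The probes named Phf1 did not agree. The second probe correlated with the first at -0.264 (rho -0.240, n = 302), with -0.0109 to -0.403 in the 4 blocks, and with Bak1 at -0.188. With 5 principal components removed these values were 0.0972 and 0.184, both of the opposite sign. The correlation of the pair is thus that of 1 Phf1 probe with the Bak1 probe.

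**Figure D2:**
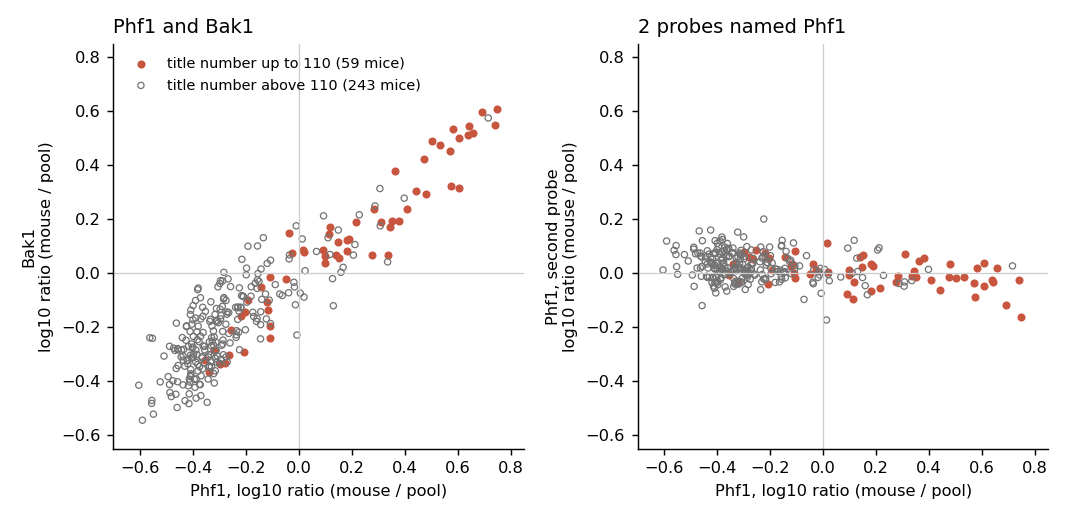
Log10 ratio of Bak1 (left) and of the second Phf1 probe (right) on the vertical axes against that of Phf1 on the horizontal axes, for 302 mice. Filled points are the 59 mice with title numbers up to 110 and open points the 243 above. Bak1 climbs with Phf1 in both sets of mice (r 0.958 and 0.839), and the second probe stays in a narrow band.

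Set against all other probes, Bak1 was the third of 23511 correlates of Phf1, and Phf1 was the first of Bak1. The probes ahead of Bak1 were those of Gpr182 on chromosome 10 (0.924), a receptor of endothelial cells, and Taf8 (0.910), a subunit of the general transcription factor TFIID that lies on chromosome 17. An absolute r of at least 0.7 with Phf1 was reached by 0.655% of all other probes and with Bak1 by 0.362%. Apart from the pair these are 153 and 84 probes. The 76 that both share are 49.7% of the Phf1 set and 90.5% of the Bak1 set. Of the 153, 86 were positive, and 99 named genes among them lay on 20 chromosomes, with 12 on chromosome 5, 9 on chromosome 17 and 8 on chromosome 7. Chromosome 17 thus held 9.09% of these genes, and 4.75% of all named genes. Named probes number 812 on chromosome 5, 579 on chromosome 17 and 1029 on chromosome 7.

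In a limma fit across all probes with the 4 blocks as covariates, 13269 of 23511 probes (56.4%) had a slope on Phf1 with an adjusted p under 0.05, 31.3% of all probes with a positive and 25.2% with a negative slope. For Bak1 the count was 12630 (53.7%), 29.4% positive and 24.3% negative. More than 1 probe in 2 was thus called against either gene, and the sizes of r are given below beside the calls. With 5 principal components as covariates 5133 and 4486 probes were called, and with title numbers up to 110 alone 6544 and 6618. With both genes in 1 fit, 6430 probes (27.4%) were called for Phf1 given Bak1 and 2539 (10.8%) for Bak1 given Phf1.

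On chromosome 17 the genes most like Phf1 after Taf8 were Nfkbil1 (r 0.793), an inhibitor-like relative of the NF-kappa-B regulators, Pkdcc (0.792), a secreted protein kinase, Man2a1 (0.779), a mannosidase that trims N-glycans in the Golgi, and Brd2 (0.763), a bromodomain reader of acetylated histones. Pgap6 (0.756), Crb3 (0.753), a cell polarity protein, Pfdn6 (0.738), a subunit of the prefoldin chaperone, Ltb (0.696), the cytokine lymphotoxin beta, Pbx2 (0.690), a homeobox factor, and Mdfi (0.687), an inhibitor of myogenic factors, followed. Cyp39a1, an oxysterol hydroxylase of bile acid synthesis, ran the other way (-0.747). For Bak1, Taf8 (0.855), Pkdcc (0.797), Man2a1 (0.777) and Mdfi (0.763) led, and Tmem63b (-0.637), a membrane channel protein, joined the 12.

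Cyp39a1 shows how wide such a follower can be. Its log10 ratio was -1.05 in the lowest mouse, 0.0138 in the median mouse and 0.728 in the highest, and its 95th percentile lay 16.7-fold above the 5th. For Taf8 the 3 values were -0.474, -0.163 and 0.560, and the percentiles lay 4.89-fold apart. Taf8 thus had nearly the range of Bak1, while Pbx2 (1.36-fold) followed Phf1 over a much smaller one.

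On other chromosomes Gpr182 was followed by Ptbp1 (0.889), a splicing repressor, Acads (0.879), the short-chain acyl-CoA dehydrogenase of fatty acid oxidation, Kdelr1 (0.871), a receptor that returns proteins to the endoplasmic reticulum, and Rhoa (0.870), a GTPase of the actin cytoskeleton. Tie1 (0.864), a receptor kinase of endothelial cells, Smco4 (0.859), Il3ra (0.858), a chain of the interleukin 3 receptor, Map3k3 (0.821), a kinase upstream of MAP kinases, and Eif4a1 (0.818), an RNA helicase of translation initiation, had positive values as well. Lamtor2 (-0.884), a part of the Ragulator complex on lysosomes, and Hmox1 (-0.817), the inducible haem oxygenase, had negative ones. For Bak1 the same genes led except that Lmo4 (0.828) and Setd5 (0.787) took the places of Map3k3 and Hmox1. Hmox1 ranged from -1.08 through a median of 0.0121 to 0.837, and its percentiles lay 15.9-fold apart.

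These genes followed Phf1 in both ranges of title numbers. In mice numbered up to 110 and above 110 the r of Gpr182 was 0.938 and 0.890, that of Taf8 0.954 and 0.861, that of Rhoa 0.837 and 0.849 and that of Lamtor2 -0.945 and -0.808. With the second Phf1 probe all 4 had the opposite sign, at -0.217, -0.177, -0.123 and 0.176.

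**Figure D3:**
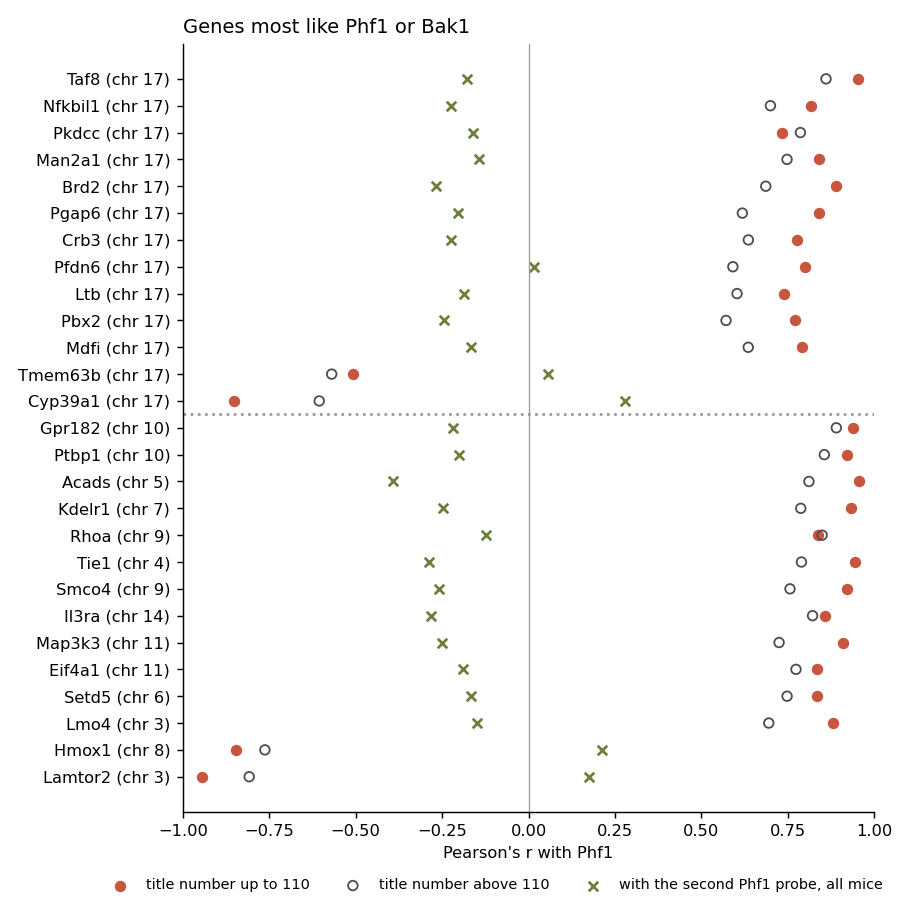
Pearson's r with Phf1 (horizontal axis) of the genes most like Phf1 or Bak1, those of chromosome 17 above the dotted line and the others below it. Filled points are mice with title numbers up to 110, open points those above, and crosses the r with the second Phf1 probe over all mice. Filled and open points lie on the same side of 0 for every gene, and nearly all crosses lie on the other side, Pfdn6 (0.0154) being the exception.

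The other probes of the strong followers often did not share their pattern. Among the named genes with an absolute r of at least 0.7, 17 had further probes, which make 25 pairs. In 7 of the 25 the other probe reached an absolute r of 0.5 with the same sign, in 13 it was under 0.3, and in 9 it had the opposite sign. A gene can enter more than 1 pair. Nsa2 (-0.749) was paired with each of its other probes, which ran from -0.67 to 0.187, and it gave the most pairs. The median r between the 2 probes of a pair was 0.170, against 0.161 over all 1805 pairs of probes of 1 gene. Ptbp1 had 0.889 with 1 probe and -0.193 with the other, and Rhoa had 0.870 and -0.346. Both probes of Cflar, an inhibitor of death receptor signalling, followed Phf1 (-0.708 and -0.694, with an r of 0.978 between them), as did both of Eif4e, the cap-binding translation factor (-0.734 and -0.688). Both probes of Abce1 followed Phf1 too (-0.749 and -0.613). Cflar, Eif4e, Abce1 and Nsa2 were named after their values were seen.

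Around the pair the pattern was uneven. Of the 37 genes that lie within 15 of either gene or between them, 6 were measured, by 7 probes, and none of these was among the 7 between Phf1 and Bak1. Lemd2, an inner nuclear membrane protein gene 14 genes from Phf1 and 6 from Bak1, had an r of 0.666 with Phf1 and 0.543 with Bak1. Its slopes went from 0.168 and 0.170 to -0.00205 and -0.0427 with 5 principal components as covariates. The slope on Phf1 was then not called (adjusted p = 0.93, limma), and that on Bak1 was (adjusted p = 0.0145). Itpr3, a calcium channel of the endoplasmic reticulum and the next gene after Bak1, had 0.100 and 0.120 and was not called (adjusted p = 0.129 and 0.0663, limma). The 2 probes of Kifc5b, a kinesin gene, had 0.485 and 0.263 with Phf1. Bnip1 (0.325), a membrane fusion protein, and Nkx2-5 (0.217), a cardiac homeobox factor, were called, and Grm4 (-0.0779), a glutamate receptor, was not (adjusted p = 0.255, limma). In all 5 of 7 probes were called against each gene, where 56.4% and 53.7% of all probes were.

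Along chromosome 17, the 31 probes within 50 genes of the pair had a median absolute r with Phf1 of 0.263, and 7 of them (22.6%) reached 0.5, as 7.55% of all probes did. For 130 probes 51 to 200 genes away the median was 0.153 and the share 6.15%, for 205 probes 201 to 600 genes away 0.164 and 12.2%, and for 213 probes farther away 0.169 and 10.8%. There was no steady decline beyond the nearest genes, and Taf8, the closest follower, was in the outermost range. On the whole chromosome 10.9% of 579 probes reached an absolute r of 0.5, against 8.07% of 12039 named probes on other chromosomes. By this share chromosome 17 was the second of 20 chromosomes, after chromosome 10, and by the share of probes called (59.2%) it was the eighth.

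**Figure D4:**
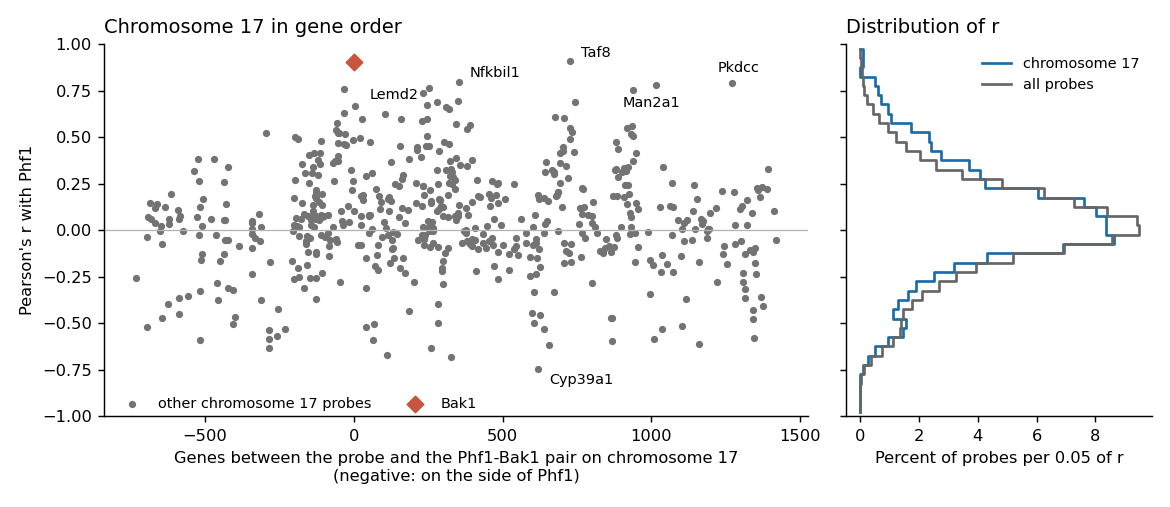
Left, Pearson's r with Phf1 (vertical axis) of chromosome 17 probes against the number of genes between them and the Phf1-Bak1 pair (horizontal axis), with Bak1 as a diamond. Right, the percent of probes per 0.05 of r for chromosome 17 and for all probes. High values such as those of Taf8 and Nfkbil1 lie far from the pair, while Pgap6 (0.756) and Lemd2 (0.666) lie within 50 genes of it. The chromosome's distribution lies close to that of all probes.

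Among 10786 pairs of measured genes that follow each other on a chromosome, the median r was 0.0278 and 4.17% had an absolute value of at least 0.5. Phf1 and Bak1 ranked eleventh. The 10 pairs ahead were mostly members of 1 gene family, such as the globin genes Hbb-b1 and Hbb-b2 (0.992), the calprotectin genes S100a8 and S100a9 (0.970) and the chemokine genes Ccl2 and Ccl7 (0.910).

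The partners of both proteins were then described from lists of genes. Of the 11 genes listed for Polycomb repressive complex 2 and its partners 9 were measured, and 6 (66.7%, where 56.4% of all probes were) were called against Phf1, 1 with a positive and 5 with a negative slope. Ezh1, a catalytic subunit, was the positive one (r 0.521), and Rbbp7 (-0.664), a histone-binding subunit, and Eed (-0.634), the subunit that reads the methyl mark, were the most negative. Against Bak1 the counts were the same, 1 and 5 (66.7%, where 53.7% of all probes were called). The median r with Phf1 was -0.350, against 0.0224 over all probes. With 5 principal components as covariates the slopes of Rbbp7 and Eed on Phf1 were 0.0106 and 0.0163. Neither was called in that fit (adjusted p = 0.61 and 0.46, limma).

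Of 22 genes of the Bcl-2 family 16 were measured, and 8 were called against Phf1, where 56.4% of all probes were, 6 positive and 2 negative, with a median r of 0.0960. Against Bak1 7 were positive and 2 negative (56.25%, where 53.7% of all probes were called). Bcl2l2, which encodes the survival protein Bcl-w, had an r of 0.565 with Phf1 and 0.459 with Bak1, and Bnip3, a mitophagy receptor induced by low oxygen, -0.635 and -0.590. The slope of Bnip3 on Phf1 was 0.00102 with 5 principal components as covariates and was not called (adjusted p = 0.983, limma). Among 8 measured of 11 further genes of mitochondrial apoptosis, 5 were called against Phf1, where 56.4% of all probes were, 3 positive and 2 negative. Against Bak1 3 were positive and 3 negative (75%, where 53.7% of all probes were called). The outer membrane channels Vdac2, known to hold Bak1 in check at the mitochondrion, and Vdac3 had the most negative values, -0.706 and -0.676 with Phf1 and -0.618 and -0.620 with Bak1. With both genes in 1 fit, their slopes on Bak1 were 0.0268 and -0.0134, not called (adjusted p = 0.579 and 0.789, limma). Their slopes on Phf1 were then -0.172 and -0.120 (adjusted p = 3.33e-13 and 3.89e-08, limma).

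The major histocompatibility genes lie on chromosome 17 beyond the pair. Of 21 measured genes 7 (33.3%, where 56.4% of all probes were) were called against Phf1, 6 positive and 1 negative, with a median r of -0.00382. Tap2 (-0.632), a peptide transporter subunit of antigen presentation, was the negative one. H2-Oa (0.453), a class II chaperone subunit, was the most positive. With 5 principal components as covariates the slope of H2-Oa on Phf1 was -0.00559 and was not called (adjusted p = 0.708, limma). Of the 2 class I partner genes on other chromosomes, Nlrc5 had 0.245 and B2m 0.0323, which was not called (adjusted p = 0.660, limma).

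**Figure D5:**
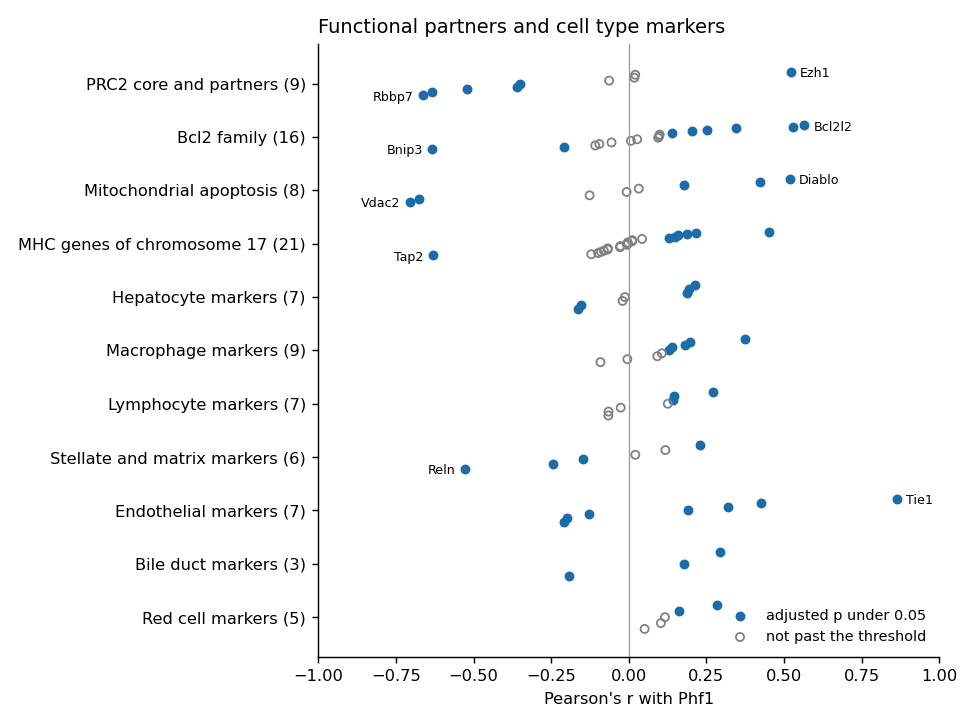
Pearson's r with Phf1 (horizontal axis) of the measured genes of each list, with the number measured in brackets. Filled points had an adjusted p under 0.05 in the limma fit over all probes and open points did not. Most lists lie on both sides of 0, and Tie1 (0.864) and Vdac2 (-0.706) are the outermost points.

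Marker genes of liver cell types were counted by the sign of their slope on Phf1 where it was called, as it was for 56.4% of all probes. Of 7 endothelial markers all were called, 4 positive and 3 negative, with a median of 0.190. Their values ran from -0.210 to 0.864, Tie1 (0.864) and Eng (0.426) being the highest. Of 9 macrophage markers 5 were called, all positive and led by C1qa (0.374) and C1qb (0.197), and 4 were not. Of 7 hepatocyte markers 3 were called positive and 2 negative, all 7 lying within -0.162 and 0.212, Ass1 and Apoa1 (0.194) being the highest. Of 7 lymphocyte markers 3 were called, all positive (Cd79b 0.271, Cd3e 0.146), and of 6 stellate and matrix markers 1 was called positive (Col1a1 0.230) and 3 negative (Reln -0.529, Lum -0.244). Of 3 bile duct markers 2 were called positive (Krt19 0.294) and 1 negative (Cftr -0.192), and of 5 red cell markers 2 were called, both positive (Hba-a1 0.284, Alas2 0.163). With 5 principal components as covariates the slopes of Eng, Apoa1, C1qb, Cd79b, Cd3e, Lum, Col1a1, Hba-a1 and Alas2 on Phf1 changed sign. None of these slopes was called in that fit. In pieces of liver, fewer cells of a type and less RNA per cell cannot be told apart, and the part of these cell types in the values of Phf1 and Bak1 was not tested.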

How the data were processed

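Liver RNA of each of 302 mice (Cy3) was hybridised with a common pool (Cy5) on 2-colour arrays, per the labels. The authors deposited 1 table of log ratios, used here as log10 values with no normalization added. How features were extracted, corrected for background and normalized is not given in the sources used here, nor are base and direction. The deposited values span -2 to 2, or 100-fold either way if log10. Read as log10, the mean linear ratio, near 1 for a pool of equal shares, was 0.870 for Phf1 and 0.873 for Bak1. The mean inverse was 1.80 and 1.53, so mouse over pool is the likely direction. Only these 2 probes and no other base were tried, so the base stays an assumption. The number of arrays limits the precision, and signal over background is not part of these values.

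Probes were named through the array's probe table and a mouse gene table of GRCm38.p6. The main probe of a gene had the largest centred SD. Values were centred in 4 blocks (Eif2s3y below or above -0.8, title number up to 212 or above). States were Gaussian mixtures of equal variance, 1 more state being taken where the Bayesian information criterion fell by over 10. Slopes came from limma 3.58.1 under R 4.3.3, with two-sided p-values adjusted by Benjamini-Hochberg over all probes at 0.05. Correlations and mixtures were computed in Python 3.11.15 with numpy 2.4.6 and scipy 1.17.1, and permutation tests were two-sided. The steps were tested on simulated data. Genes named are all probes of the pair, measured genes within 15 genes, the 12 genes with the largest absolute r on and off chromosome 17 for either gene, and of each list the 2 with the largest absolute r and any called alone in its direction. The members and lists were chosen with earlier results of these data known; the limit of 2 a list was set after the values were seen. The alternatives were no centring, other blocks, ranks, subsets of mice or probes, 5 principal components and the other probe.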

Additional observations from a re-analysis of the deposited data

How the results depend on the processing

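No paired analysis was possible because the labels give 1 group. The agreement of Bak1 probes was not run, as Bak1 has 1 probe. The alternatives with bins of 20 title numbers and with title numbers up to or above 110, and those for the agreement of the Phf1 probes beyond no centring and Spearman's rho, and the other probe of Phf1 with 5 principal components removed, were chosen after seeing the data. Where a value moved, the cause was not tested, except that fewer mice or probes entered some fits.

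The correlation of Phf1 and Bak1 was 0.902. It was 0.938 and 0.936 in the blocks with title numbers up to 212 (Eif2s3y below and above -0.8), 0.749 and 0.857 in those above 212, 0.840 by Spearman's rho, 0.787 with 5 principal components removed, 0.958 up to title number 110 and 0.839 above it. With the other probe of Phf1 it was reversed, at -0.188, and with that probe and 5 principal components removed it was 0.184. The agreement of the Phf1 probes (-0.264) was -0.0109, -0.403 and -0.400 in 3 of the blocks and -0.459 up to number 110, and reversed to 0.0972 with 5 principal components removed.

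The share of mice in the lowest state was 83.1% for Phf1. It was 76.5% with values as deposited (3 states), 72.8% with free variances, 68.6% up to number 212, 89.7% above 110 and 100% with the other probe, which had 1 state. For Bak1 it was 88.4%, 70.5% with free variances, 92.6% above 110 and 100% above 212.

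The 13269 probes called with Phf1 and 12630 with Bak1, of 23511 tested, became 5133 and 4486 with 5 principal components as covariates. They became 7061 and 7211 above number 212, and 6544 and 6618 up to 110. The fit of probes with a centred SD above the median tested only 11755 probes, of which 6903 and 6584 were called. The 6430 called with Phf1 given Bak1 became 3955 with principal components and 4163 with bins of 20 numbers, and the 2539 called with Bak1 given Phf1 became 1249 with these bins.

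Of 1449 slopes recomputed for 59 named probes, 1232 kept their direction and side of the threshold, 121 lost the call, 4 gained it and 92 changed sign. The 92 are counted by sign alone, whether or not the slope was still called. Of the 92, 16 were slopes of Itpr3, Grm4 and B2m, which were not called to begin with.
With 5 principal components as covariates 14 called slopes on Phf1 reversed, those of Lemd2 (-0.00205), Bnip3 (0.00102), Eng (-0.00612), Apoa1 (-0.0221), Cd79b (-0.0149), Cd3e (-0.0194), H2-Oa (-0.00559), C1qb (-0.0251), Rbbp7 (0.0106), Eed (0.0163), Hba-a1 (-0.0654), Alas2 (-0.0676), Lum (0.00732), Col1a1 (-0.00685), and 8 on Bak1, those of Lemd2 (-0.0427), Apoa1 (-0.00833), Cd79b (-0.00715), Cd3e (-0.000425), H2-Oa (-0.00619), Hba-a1 (-0.0798), Alas2 (-0.00798), Lum (0.0551). None of these 14 slopes on Phf1 was called with the components (adjusted p 0.181 to 0.983, limma). Of the 8 on Bak1 only that of Lemd2 was (adjusted p = 0.0145). Above number 212 the slope of Lum on Bak1 reversed (0.00507) and was not called (adjusted p = 0.962, limma). With the other probe of Phf1, 53 called slopes reversed, those of Taf8 (-0.770), Nfkbil1 (-0.56), Pkdcc (-0.571), Man2a1 (-0.34), Brd2 (-0.827), Pgap6 (-0.657), Crb3 (-0.525), Cyp39a1 (1.65), Ltb (-0.336), Pbx2 (-0.211), Mdfi (-0.549), Gpr182 (-1.19), Ptbp1 (-0.635), Lamtor2 (0.453), Acads (-1.06), Kdelr1 (-0.94), Rhoa (-0.437), Tie1 (-0.712), Smco4 (-0.474), Il3ra (-0.735), Map3k3 (-0.631), Eif4a1 (-0.521), Hmox1 (1.65), Tmem63b (0.193), Lmo4 (-0.357), Setd5 (-0.581), Bnip1 (-0.143), Nkx2-5 (-0.23), 1 Kifc5b probe (-0.382), Lemd2 (-0.521), Bnip3 (0.55), Bcl2l2 (-0.227), Krt19 (-0.0178), Cftr (0.106), Eng (-0.371), Ass1 (-0.381), Apoa1 (-0.255), Cd79b (-0.0458), Nlrc5 (-0.0654), Tap2 (0.301), H2-Oa (-0.222), C1qa (-0.700), C1qb (-0.293), Vdac2 (0.347), Vdac3 (0.349), Rbbp7 (0.848), Eed (0.726), Ezh1 (-0.0653), Hba-a1 (-0.757), Alas2 (-0.618), Reln (0.308), Lum (0.392), Col1a1 (-1.50). Of these 53, the slopes of Rhoa, Tmem63b, Krt19, Cftr, Apoa1, Cd79b, Nlrc5, C1qb, Ezh1 and Lum were not called with the other probe. Of the slopes not called to begin with, Itpr3 on Phf1 became -0.0118 with 5 principal components, -0.00914 above number 212 and -0.122 with the other probe. On Bak1 it became -0.0212 and -0.0254 in the first 2 of these. Grm4 on Phf1 became 0.0192, 0.00807 and 0.0701 in the same 3 settings, 0.00202 with bins of 20 numbers and 0.00960 above number 110, and on Bak1 0.000565 with the components and 0.00362 above 212. B2m on Phf1 became -0.00190 with no block, -0.0778 with the components and -0.0358 above 212, and on Bak1 -0.0401 with the components.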
